A study of Mus musculus with 19 samples.

Results

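Transcript levels of 8 genes that bind or shorten the poly(A) tail of mRNA were followed in 19 single mouse embryos. The 8 genes were chosen by symbol among the 53379 genes of the deposited table: the poly(A)-binding proteins Pabpc1, Pabpc4, Pabpc1l and Pabpn1, and the deadenylation genes Cnot1, Cnot6l, Cnot7 and Btg4. The choice was made with measured values known, since Pabpc4 had been seen to be higher in morulae labelled Gabpb1 KO than in non-KO morulae from the same parents. Values of the 8 genes in that comparison are therefore given as a description without a test, and tests there are given only for genes outside the 8. Of the 8 genes, 6 reached the expression minimum for testing, and Pabpc1l and Btg4 did not.

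A poly(A) tail protects an mRNA and helps its translation, both through the proteins that coat it. Cytoplasmic poly(A)-binding proteins link the tail to the translation initiation machinery, while the nuclear protein Pabpn1 coats new tails as they are made. The CCR4-NOT complex removes tails and so starts the decay of most mRNAs. Growing mammalian oocytes store mRNAs with regulated tails, and the clearance of these maternal mRNAs around meiotic maturation and fertilisation uses CCR4-NOT together with the adaptor Btg4.

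All embryos were B6D2F1, came from in vitro fertilisation and were collected 96 hours after insemination. Parents heterozygous for an Alyref deletion (Alyref+/- on both sides) gave 2 morulae labelled Alyref KO, with 3 morulae and 3 blastocysts that were non-KO. Parents heterozygous for a Gabpb1 deletion (Gabpb1+/- on both sides) gave 3 morulae labelled Gabpb1 KO, with 2 morulae and 3 blastocysts that were non-KO, and WT parents gave 3 blastocysts. Non-KO embryos are WT or heterozygous, and their genotypes are not separated by the labels. KO embryos were recognised by the submitters from missing reads over the deleted region in these same libraries. Each cross had its own fertilisations and the labels give no batch or date, so a cross and its batch cannot be told apart. No blastocyst was labelled KO, and every KO comparison is among morulae. Morulae and blastocysts had the same age, so stage cannot be told apart from slower development.

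Gene counts ranged from 7.49 to 31.5 megacounts per embryo. Alyref, an mRNA export adaptor, was at 47.8 and 58.5 CPM (counts scaled to a common library size) in the morulae labelled Alyref KO, and at 210, 291 and 161 CPM in the non-KO morulae of its cross. Gabpb1, which encodes part of the GABP transcription factor, was at 78.2, 259 and 151 CPM in the morulae labelled Gabpb1 KO, and at 93.8 and 83.3 CPM in the non-KO morulae. The gene level therefore goes against the Gabpb1 KO label. The deleted bases cannot be examined in counts per gene, so this level is no check of the deletion itself. Summed levels of 10 trophectoderm markers, the genes of the outer cell layer, were 394 to 4646 CPM in the 10 morulae and 4835 to 7639 CPM in the 9 blastocysts. Over all crosses, the other marker sums overlapped between the stages. They were 214 to 732 CPM in morulae and 303 to 576 CPM in blastocysts for epiblast and pluripotency, and 125 to 208 and 124 to 275 CPM for primitive endoderm. Oocyte mRNAs summed to 28.5 to 146 and 87.7 to 190 CPM, cumulus and granulosa markers to 4.70 to 24.1 and 4.22 to 10.1 CPM, and sperm markers to at most 2.15 CPM in any embryo. Of the 9 cumulus and granulosa markers, only Amhr2 and Star exceeded 8 counts in any embryo, at up to 316 and 43. Among the oocyte mRNAs, Ooep reached 3969 counts and the next, Padi6, 413. Among the trophectoderm markers, Krt18 reached 127655 counts, Krt8 64639 and Id2 26292, and the next, Gata3, 7550. These 3 sums can thus follow few genes. They are no measure of cumulus cells, of oocyte RNA or of trophectoderm cells as such.

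Pabpc4 was the member whose reads were hardest to assign to a single gene. In GENCODE M21 transcripts, 54.8% of the distinct 50-base words of Pabpc4 also occur in other genes, against 18.8% for Pabpn1, 9.94% for Pabpc1, 4.76% for Cnot1 and 2.76% for Cnot7. Cnot6l, Pabpc1l and Btg4 had no such word. Most of the shared Pabpc4 words, 2153 of 2281, lie in Gm10110, a transcribed processed pseudogene at chr14:89896228-89899447 on the minus strand. Over 1920 aligned bases of the Pabpc4 coding sequence, Gm10110 differs at 10 positions, an identity of 99.5%. The identity with Pabpc1 is 73.1% and with Pabpc1l 70.3%. A stretch of 90 bases, coding bases 877 to 966 of Pabpc4, shows how close the pseudogene is beside the true paralogues. Letters are in lower case, with capitals where a base differs from Pabpc4 in an alignment without gaps. They come from the GENCODE M21 transcripts and are written 5′ to 3′ on the transcript strand.
Pabpc4: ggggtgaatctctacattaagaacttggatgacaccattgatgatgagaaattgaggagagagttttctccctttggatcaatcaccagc
Gm10110: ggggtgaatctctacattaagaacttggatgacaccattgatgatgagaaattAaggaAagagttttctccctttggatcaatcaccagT
Pabpc1: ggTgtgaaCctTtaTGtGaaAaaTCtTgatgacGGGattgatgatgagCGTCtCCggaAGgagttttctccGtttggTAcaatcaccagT
Pabpc1l: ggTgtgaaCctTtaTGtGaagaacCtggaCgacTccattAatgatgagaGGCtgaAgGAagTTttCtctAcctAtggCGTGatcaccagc
Gm10110 has 3 differences in this stretch, and Pabpc1 and Pabpc1l have 25 each.

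Gm10110 followed Pabpc4 closely in these libraries. Its counts were between 31.995% and 38.2% of the Pabpc4 counts in every one of the 19 embryos, with a median of 34.4%, while Pabpc4 itself ranged over 6.68-fold. Whether the table counted reads that match both genes, and for which of them, is not given in the sources used here. The Pabpc4 and Gm10110 counts are therefore uncertain as separate quantities. Pabpc4 results are given below also as a sum over Pabpc4 and the 12 genes that share its words. Beside Pabpc4, Pabpn1 shares 651 of its 3035 merged exon bases with Gm20521 on the same strand. Cnot7 shares 247 of 5821 exon bases with Zdhhc2 and Cnot1 132 of 17169 with 4930513N10Rik, both on the opposite strand, and the strand setting of the counting is not given in the sources used here.

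**Figure D1:**
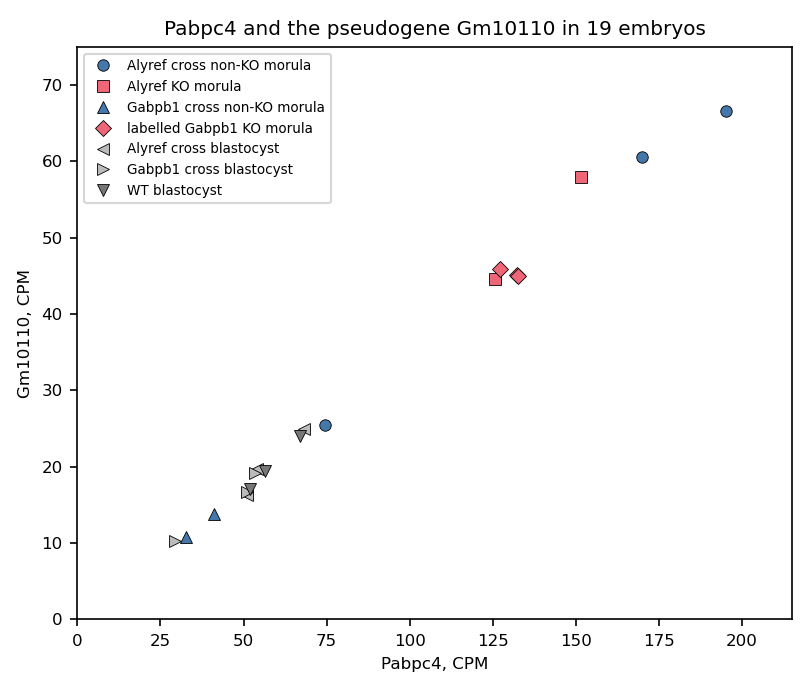
Levels of Gm10110 (vertical axis, CPM) against Pabpc4 (horizontal axis, CPM), with 1 symbol per embryo and the group in the legend. All 19 embryos lie along a single line, on which Gm10110 counts are 31.995% to 38.2% of Pabpc4 counts.

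Per length, Pabpc1 was the most abundant of the 8 genes. The order by median FPKM (counts scaled by merged exon length and by the library total) over the 19 embryos was Pabpc1 at 41.6, Cnot7 at 24.9, Pabpn1 at 21.4, Pabpc4 at 17.8, Cnot1 at 6.02, Cnot6l at 1.25, Pabpc1l at 0.0328 and Btg4 at 0. Neighbours in this order overlapped in their FPKM ranges over embryos: Pabpc1 spanned 27.2 to 70.7, Cnot7 17.1 to 69.1, Pabpn1 14.2 to 40.0, Pabpc4 7.46 to 42.2, and Cnot1 3.39 to 10.8. Cnot6l, at 0.292 to 2.01 FPKM, lay wholly below Cnot1.

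Pabpc4, a cytoplasmic poly(A)-binding protein, had the widest range of the 6 tested genes across embryos. It lies on the plus strand of chromosome 4 (GRCm38 123262351 to 123298925). The 5 morulae labelled KO, from both crosses, lay between 126 and 152 CPM, whereas the 5 non-KO morulae ranged from 32.6 to 195 CPM. In the Alyref cross, Pabpc4 was at 126 and 152 CPM in the KO morulae, and at 170, 195 and 74.5 CPM in the non-KO morulae. In the Gabpb1 cross, it was at 127, 132 and 133 CPM in the morulae labelled KO, and at 41.2 and 32.6 CPM in the non-KO morulae. The 9 blastocysts lay between 29.3 and 68.1 CPM, with a median of 53.6 CPM. Of the 10 morulae, 8 were therefore above all 9 blastocysts and the 2 non-KO morulae of the Gabpb1 cross were within the blastocyst range. By group mean, Pabpc4 ran from 147 ± 63.7 CPM (SD, n = 3) for the non-KO morulae of the Alyref cross, through 139 ± 18.2 CPM (SD, n = 2) for the Alyref KO and 131 ± 3.10 CPM (SD, n = 3) for the labelled Gabpb1 KO morulae, to the blastocysts. Those means were 58.4 ± 7.67 CPM (SD, n = 3) from WT parents, 57.8 ± 9.10 CPM (SD, n = 3) in the Alyref cross and 44.6 ± 13.4 CPM (SD, n = 3) in the Gabpb1 cross, and the Gabpb1 cross non-KO morulae were at 36.9 ± 6.05 CPM (SD, n = 2). Neighbours in this order overlapped, apart from the step between the morulae labelled Gabpb1 KO and the WT blastocysts.

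Pabpc1, the most abundant cytoplasmic poly(A)-binding protein here, did not share this split. It lies on the minus strand of chromosome 15 (36595661 to 36609668). Pabpc1 was at 232 and 276 CPM in the Alyref KO morulae, and at 264, 321 and 290 CPM in the non-KO morulae of the cross. It was at 440, 248 and 230 CPM in the morulae labelled Gabpb1 KO, and at 260 and 175 CPM in the non-KO morulae. The 9 blastocysts lay between 209 and 433 CPM, with a median of 294 CPM, and the morulae of every group overlapped them. Within an embryo, the ratio of Pabpc4 to Pabpc1 FPKM was 0.880 and 0.891 in the Alyref KO embryos and 1.04, 0.989 and 0.417 in the non-KO morulae of its cross. It was 0.469, 0.867 and 0.936 in the morulae labelled Gabpb1 KO and 0.258 and 0.303 in the non-KO morulae. The 9 blastocysts held ratios of 0.227 to 0.334. The proportion of the 2 poly(A)-binding transcripts thus split the embryos in the same way as Pabpc4 alone.

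**Figure D2:**
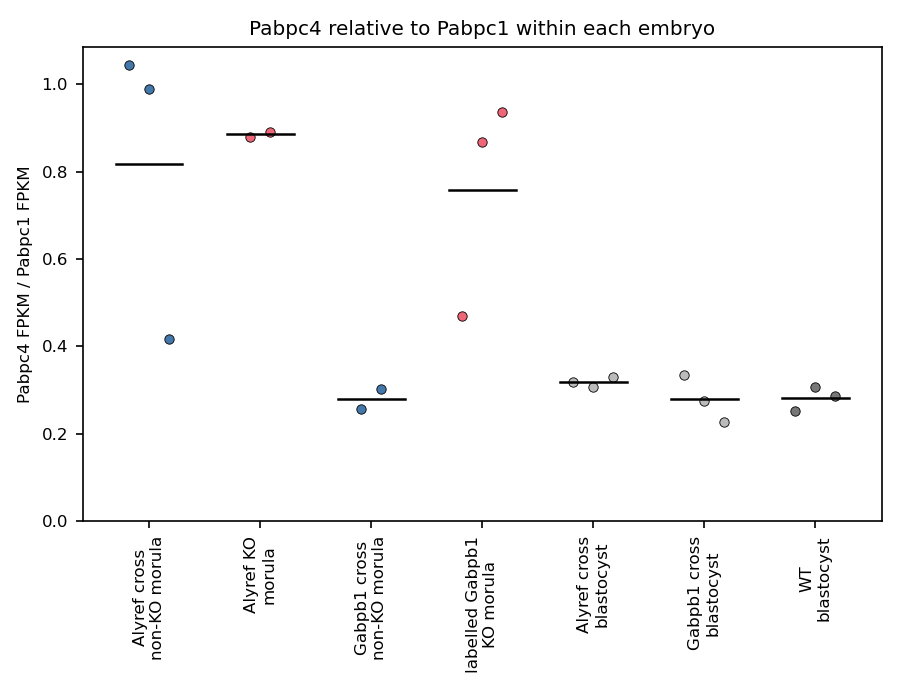
Ratio of Pabpc4 to Pabpc1, each in FPKM (vertical axis), in single embryos by group (horizontal axis), with points for embryos and lines for group means. The 2 non-KO morulae from the Gabpb1 cross, at 0.258 and 0.303, lie among the 9 blastocysts, and the other 8 morulae lie above them, from 0.417.

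Pabpn1, the nuclear poly(A)-binding protein, lies on the plus strand of chromosome 14 (54892500 to 54898169) and had the narrowest range, 2.29-fold over the embryos. It was at 55.8 and 73.0 CPM in the Alyref KO morulae, and at 57.2, 49.4 and 53.0 CPM in the non-KO morulae. It was at 87.1, 55.2 and 66.2 CPM in the morulae labelled Gabpb1 KO, and at 66.4 and 61.3 CPM in the non-KO morulae. The 9 blastocysts lay between 56.2 and 113 CPM, with a median of 76.1 CPM, an overlap with all morula groups.

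Cnot1, the scaffold that holds the CCR4-NOT complex together, lies on the minus strand of chromosome 8 (95719451 to 95807464). It was at 94.0 and 125 CPM in the Alyref KO morulae, and at 144, 206 and 133 CPM in the non-KO morulae of the cross. It was at 148, 195 and 163 CPM in the morulae labelled Gabpb1 KO, and at 92.3 and 58.0 CPM in the non-KO morulae. The 9 blastocysts lay between 59.7 and 114 CPM, with a median of 97.6 CPM. As for Pabpc4, both non-KO morulae of the Gabpb1 cross were at or below blastocyst levels, but so was 1 of the 2 Alyref KO morulae. Among pairs of tested members, Pabpc4 and Cnot1 had the highest Pearson correlation of log2(CPM + 1) over the 19 embryos, at 0.789. This is a description over embryos that share stage and cross.

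The catalytic subunits differed from each other in level and spread. Cnot7, a deadenylase of the complex, lies on the minus strand of chromosome 8 (40492540 to 40515847). It was at 122 and 164 CPM in the Alyref KO morulae, and at 240, 156 and 143 CPM in the non-KO morulae. It was at 96.1, 421 and 231 CPM in the morulae labelled Gabpb1 KO, which thus held the lowest and the highest Cnot7 levels of all 19 embryos. The Gabpb1 cross non-KO morulae were at 169 and 120 CPM, and the 9 blastocysts at 101 to 182 CPM, with a median of 135 CPM. Cnot6l, a CCR4-type deadenylase of the complex encoded on chromosome 5, was at 3.46 to 19.8 CPM in the 10 morulae and 5.76 to 19.4 CPM in the 9 blastocysts, with medians of 10.6 and 13.2 CPM. The ratio of Cnot6l to Cnot7 FPKM was 0.0125 to 0.116 in morulae and 0.0178 to 0.108 in blastocysts, so Cnot7 was the more abundant of these subunits in each embryo.

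**Figure D3:**
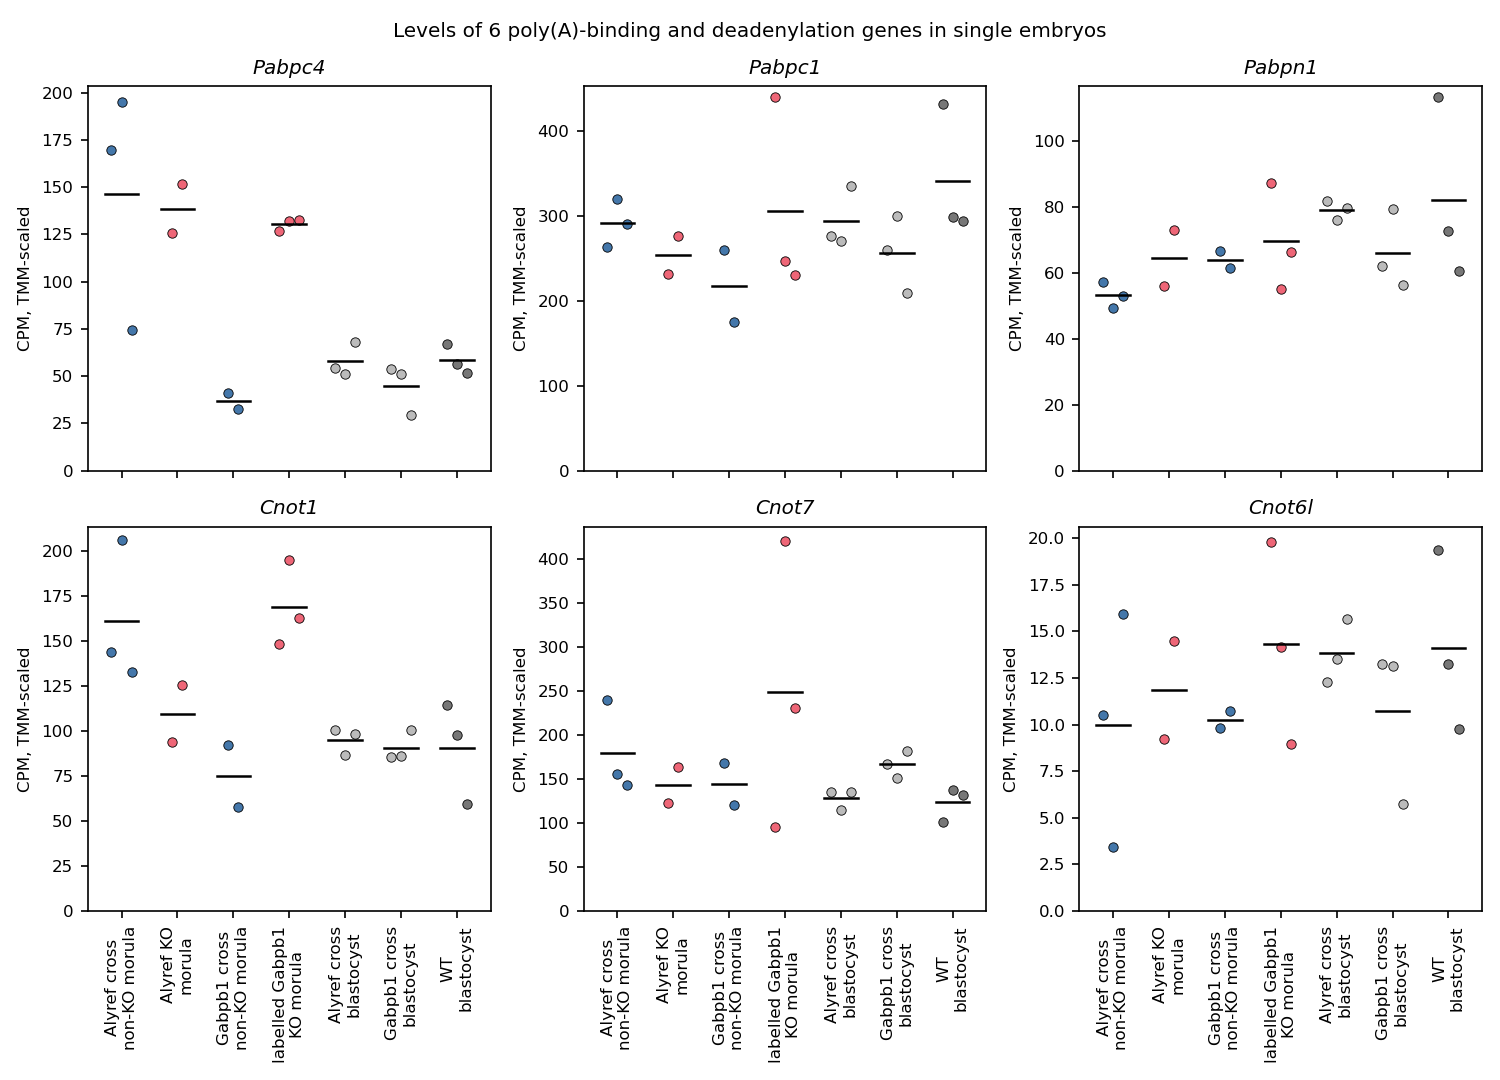
Levels of the 6 tested genes (vertical axes, TMM-scaled CPM, each from 0) in single embryos by group (horizontal axis), with points for embryos and lines for group means. Pabpc4 and Cnot1 are low in the 2 Gabpb1 cross non-KO morulae and in the 9 blastocysts, whereas Pabpc1 overlaps between all stages.

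Btg4 and Pabpc1l, both known from oocytes, had few or no counts. Btg4, the adaptor that brings CCR4-NOT to maternal mRNAs, lies on the plus strand of chromosome 9 (51060901 to 51119875). It had 0 counts in all 9 blastocysts, which allows levels of up to 0.0967 to 0.355 CPM (3 counts of each embryo's scaled total; counting error only). Among the morulae, 15 and 25 counts, or 1.39 and 1.77 CPM, were found in 2 of the morulae labelled Gabpb1 KO (replicates 2 and 3), and 0 in the other. The Alyref KO morulae had 3 and 0 counts, the Alyref cross non-KO morulae 0, 2 and 1, and the Gabpb1 cross non-KO morulae none. Btg4 was thus above 3 counts in 2 embryos of a single group, and overlapped the controls there through replicate 1. Over 16 other oocyte mRNAs the summed level was 146, 52.8 and 81.6 CPM in replicates 1, 2 and 3 of that group and 73.8 and 61.6 CPM in its non-KO controls. Replicate 2 had counts for all 16 of these genes, where the other 18 embryos had counts for 8 to 14. Pabpc1l, an embryonic and oocyte poly(A)-binding protein on the plus strand of chromosome 2 (164025450 to 164050538), had 0 to 6 counts per embryo. A count was found in 13 of 19 embryos, and the highest level was 0.528 CPM. It had 4 counts in each Alyref KO morula and 0, 0 and 1 in their non-KO controls. Pabpc1l was below the minimum for the reported test. With no minimum, its adjusted p was 0.580 between these groups (edgeR).

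**Figure D4:**
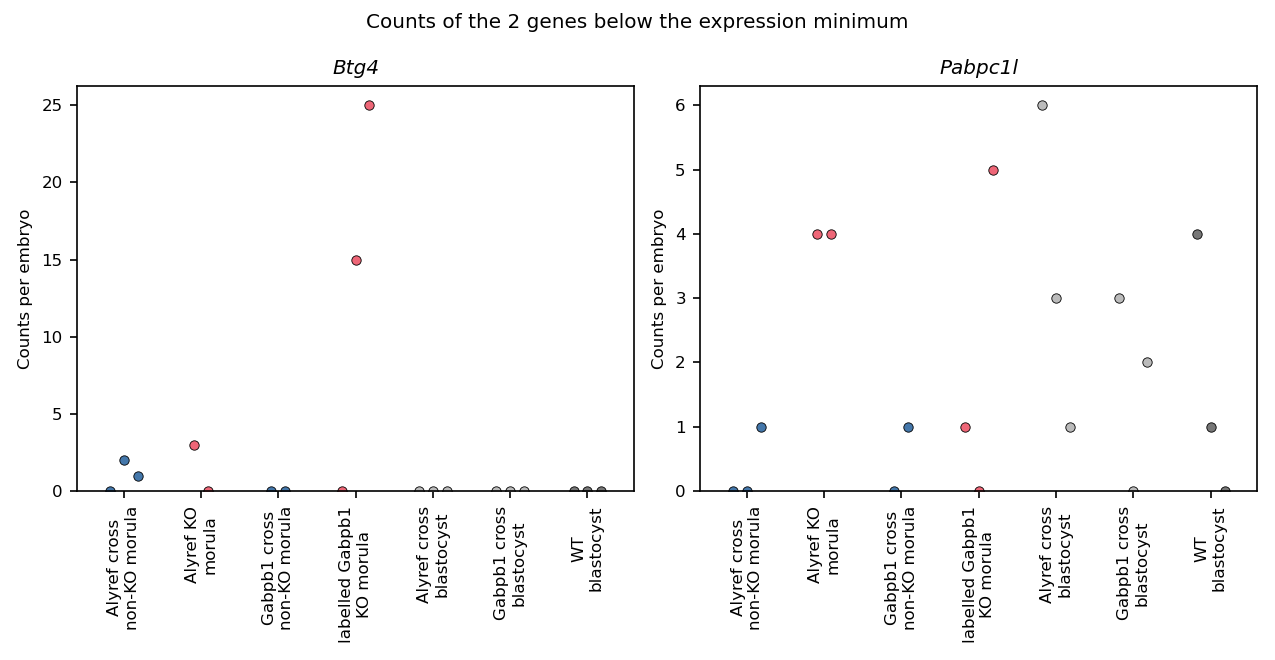
Counts per embryo (vertical axes, from 0) of Btg4 and Pabpc1l by group (horizontal axes), with 1 point per embryo. The Btg4 values of 15 and 25 counts belong to 2 of the 3 morulae labelled Gabpb1 KO, all 9 blastocysts are at 0, and Pabpc1l does not exceed 6.

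Morulae labelled Alyref KO showed no detected change in the members' transcript levels. None of the 6 tested genes passed an adjusted p of 0.05 between Alyref KO and non-KO morulae (edgeR's quasi-likelihood test, Benjamini-Hochberg adjustment over 18410 genes), where 0.228% of all genes did. The count was also 0 at an unadjusted p under 0.05, with DESeq2 and with limma voom. Cnot1 was the only tested member whose KO embryos lay outside the non-KO range. Both were below all 3 non-KO morulae, by 0.55 on the log2 scale (log2 fold change -0.55, SE 0.28, 95% interval -1.15 to 0.05; adjusted p 0.462), and 12.3% of all genes were separated in this direction. For Pabpc4 the log2 fold change was -0.08 (SE 0.33, 95% interval -0.78 to 0.62, adjusted p 0.961), and its sign was not stable: it was 0.079 with ERCC spike-in library sizes and 0.033 as the sum over genes with shared words. Pabpc1 was at -0.20 (95% interval -0.80 to 0.40), Pabpn1 at 0.28 (-0.27 to 0.83), Cnot6l at 0.25 (-0.86 to 1.36) and Cnot7 at -0.33 (-1.21 to 0.55) on the log2 scale. The intervals reach beyond a 2-fold change in level for Cnot1, Cnot6l and Cnot7. The oocyte mRNA sums were also separated between these groups, at 34.5 and 28.5 CPM in the KO and 72.2, 84.4 and 74.2 CPM in the non-KO morulae, and their part in these values was not tested.

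In the Gabpb1 cross, where the choice was made, Pabpc4 was 3.54-fold higher in the morulae labelled KO than in the non-KO morulae, 1.82 on the log2 scale (SE 0.35). All 3 embryos lay above both controls, a separation that 15.8% of all genes showed in this direction. As the sum over genes with shared words, the log2 fold change was 1.84. Cnot1 was 2.24-fold higher, 1.17 on the log2 scale (SE 0.29), again with no overlap. Pabpc1 was at 0.49, Pabpn1 at 0.12, Cnot6l at 0.48 and Cnot7 at 0.79 on the log2 scale, each with overlap between the groups. Compared with the other morulae, the controls of this comparison were the low group: the morulae labelled Gabpb1 KO were within the range of the Alyref cross for Pabpc4 and Cnot1. The sum of trophectoderm markers, in which Krt18, Krt8 and Id2 can weigh most, was separated between the same embryos. It was 4646 and 2751 CPM in the Gabpb1 cross non-KO morulae, and 2723, 394 and 1128 CPM in the morulae labelled KO. All 10 markers had counts in these 5 embryos, and the direction of each marker is not given here. The part of these cells in the Pabpc4 difference was not tested, and fewer cells of a type and less RNA per cell cannot be told apart in whole embryos.

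Pabpc4 and Cnot1 were again without overlap when non-KO morulae were set against each other by cross. This comparison uses the same Gabpb1 cross controls as the one that chose Pabpc4, so its values are a description with no test. Pabpc4 was 3.97-fold lower in the Gabpb1 cross than in the Alyref cross non-KO morulae, -1.99 on the log2 scale (SE 0.36), and Cnot1 was 2.14-fold lower, -1.10 on the log2 scale (SE 0.29). The separation was shared by 18.2% of all genes in the lower direction and 17.9% in the higher. Pabpc1, at -0.42 on the log2 scale and 0.050 with ERCC spike-in library sizes, was also without overlap in CPM and lower, and Pabpn1, at 0.26, was without overlap and higher. Marker sums were separated between the same embryos. Those of trophectoderm were 4646 and 2751 CPM in the Gabpb1 cross against 769, 716 and 2167 CPM in the Alyref cross, and those of epiblast and pluripotency 400 and 214 against 651, 617 and 732 CPM. The other 4 sums overlapped, and the part of these cells was not tested.

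Between morulae and blastocysts of the Alyref cross, a comparison with no embryo in common with the choice, Pabpc4 differed. It was 2.54-fold lower in the 3 blastocysts, at 54.2, 51.0 and 68.1 CPM, than in the 3 non-KO morulae, at 170, 195 and 74.5 CPM, and the groups did not overlap. This is -1.34 on the log2 scale (SE 0.30, 95% interval -1.98 to -0.71), with an adjusted p of 0.0141 by edgeR and Benjamini-Hochberg adjustment. That test takes its spread from all 7 groups, which include the embryos of the choice, so it is not fully separate from the choice. Pabpc4 was 1 of 6 tested members past the threshold, where 13% of all genes were. As the sum over genes with shared words, the log2 fold change was -1.38 (adjusted p 0.0143). The call was lost, with the same direction, when morula 1 (-1.20, adjusted p 0.0538), morula 2 (-1.04, 0.0820), blastocyst 1 (-1.30, 0.0639) or blastocyst 2 (-1.26, 0.0676) was left out. The call was also lost with only the groups compared in the fit, where no embryo of the choice enters (adjusted p 0.0827). With ERCC library sizes it was lost too (adjusted p 0.196). Without morula 3 the log2 fold change was -1.66 (adjusted p 0.000687). Over all alternatives the adjusted p ranged from 0.000171 to 0.196. The sum of trophectoderm markers was 769, 716 and 2167 CPM in the 3 morulae and 7639, 6890 and 4835 CPM in the 3 blastocysts. Morula 3, the lowest of these morulae in Pabpc4, had the highest marker sum of the 3. Of the 10 markers, Elf5 had no count in 1 of these 6 embryos. The sums of 3 other lists were also without overlap between these embryos. Epiblast and pluripotency markers were at 651, 617 and 732 CPM in morulae and 380, 303 and 382 CPM in blastocysts. Cumulus and granulosa markers were at 17.7, 22.1 and 12.3 against 4.22, 7.45 and 8.35 CPM, and oocyte mRNAs at 72.2, 84.4 and 74.2 against 134, 150 and 89.7 CPM. The part of these sums in the Pabpc4 result was not tested.

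Cnot1, Pabpn1 and Cnot7 were separated between the same stages without passing the test. Cnot1 was at 101, 86.9 and 98.2 CPM in the Alyref cross blastocysts, all below the 3 morulae, at -0.76 on the log2 scale (SE 0.25, 95% interval -1.29 to -0.22, adjusted p 0.0565). It passed the threshold with limma voom, with DESeq2 and with morula 3 left out, where its adjusted p was as low as 0.0137. Of all 18410 genes, 7262, 3762 and 4560 passed under these 3 settings. Pabpn1 was at 81.8, 76.1 and 79.6 CPM, all above the 3 morulae, at 0.57 on the log2 scale (SE 0.23, 95% interval 0.08 to 1.07, adjusted p 0.109). Cnot7 was at 135, 114 and 135 CPM, also below the 3 morulae, at -0.49 on the log2 scale (SE 0.37, adjusted p 0.382). With limma voom Pabpn1 and Cnot7 also passed, at adjusted p of 0.0262 and 0.0214, a setting that called 7262 of all 18410 genes. Of the 6 tested members, 3 were thus lower and 1 higher without overlap, where 19.2% and 19.6% of all genes were. For Pabpc1 the value was 0.01 on the log2 scale (SE 0.25, adjusted p 0.985, 95% interval -0.52 to 0.54), and turned to -0.25 with ERCC library sizes. Cnot6l was at 0.47 (SE 0.47, adjusted p 0.522).

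In the Gabpb1 cross, blastocysts and non-KO morulae overlapped in all 6 tested members. Pabpc4 was at 53.6, 51.0 and 29.3 CPM in the blastocysts and 41.2 and 32.6 CPM in the morulae, 0.27 on the log2 scale (SE 0.33) and -0.54 with ERCC library sizes. Cnot1 was at 85.6, 86.1 and 101 CPM in the blastocysts, 0.27 on the log2 scale (SE 0.28) and -0.64 with ERCC library sizes. No member passed the threshold with edgeR, where 0% of all genes did, nor at an unadjusted p under 0.05, with DESeq2 or with limma voom. The difference between the stage effects of the crosses was 1.62 on the log2 scale for Pabpc4 (SE 0.45) and 1.03 for Cnot1 (SE 0.38). No member was past the threshold for that difference with edgeR, beside 0.00543% of all genes. At an unadjusted p under 0.05 with edgeR the count was 2 of the 6 tested members, where 2534 of all 18410 genes were. Both the Gabpb1 cross stage comparison and this difference use the low non-KO morulae of the choice. Their member values and counts are therefore a description with no test, and no more is read from them.

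Blastocysts of the crosses did not differ detectably from those of WT parents. No member passed the threshold in either cross with edgeR, where 0% of all genes did, nor at an unadjusted p under 0.05, with DESeq2 or with limma voom. Pabpc4 was at 66.9, 56.5 and 51.9 CPM in WT blastocysts. Its log2 fold change against them was -0.02 (SE 0.30, 95% interval -0.65 to 0.61) in the Alyref cross, where its sign was not stable, and -0.39 (SE 0.30, 95% interval -1.02 to 0.24) in the Gabpb1 cross. Cnot7 was at 168, 152 and 182 CPM in the Gabpb1 cross blastocysts and 101, 138 and 133 CPM in the WT blastocysts. These Cnot7 values did not overlap, as for 6.51% of all genes in this direction, and the difference was 0.43 on the log2 scale (SE 0.37, adjusted p 0.925). Primitive endoderm sums were lower without overlap in the blastocysts of both crosses, at 149, 124 and 172 CPM in the Alyref and 212, 139 and 174 CPM in the Gabpb1 cross, than in those of WT parents, at 260, 239 and 275 CPM. Cumulus and granulosa sums, in which only Amhr2 and Star exceeded 8 counts, were separated between the same embryos as Cnot7. They were at 10.1, 7.70 and 5.91 against 5.23, 4.86 and 5.24 CPM, and the part of these sums was not tested.

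The genes that followed each member most closely over the 19 embryos were often those with shared sequence. By Pearson correlation of log2(CPM + 1), Pabpc4 was followed by Gm10110 (0.997), Gm11841 (0.964), 2510046G10Rik (0.952), Tfpt (0.941) and Gm4796 (0.941). Gm11841 is a further processed pseudogene with Pabpc4 words. Pabpc1 was followed by Gm16580 (0.972), a pseudogene with 409 Pabpc1 words, then Pcbp2 (0.895) and Zc3h18 (0.870). Pabpn1 was followed by the overlapping Gm20521 (0.938), then Gm11702 (0.934) and Mir503 (0.906). For Cnot1 the closest genes were Zmym1 (0.902), Papd5 (0.901) and Heatr1 (0.898), for Cnot6l Chd4 (0.896), Nucks1 (0.864) and 4632427E13Rik (0.857), and for Cnot7 Gm44018 (0.838), Gm9988 (0.837) and Ctage5 (0.837). The closest gene of Pabpc4, Pabpc1 and Pabpn1 shared exons or 50-base words with the member in each case.

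Promoters were searched for the ETS-type motif bound by GABP, since Gabpb1 encodes a GABP subunit. RefSeq promoter windows of 300 bases (GRCm38.p6) were found for 5 of the 8 members, in 7 windows. Pabpc1, Cnot1 and Cnot7 had no window and were not searched. CCGGAAGT, searched on both strands, occurred in 3.89% of all 32851 promoters and in no member window. The shorter CCGGAAG, part of the same motif, occurred in 8.86% of all promoters and in 1 of 3 Cnot6l windows, 136 bases before the start, at chr5:96161874-96161902 on the minus strand. The match is shown with its flanks, in gene orientation, with the reverse complement of CCGGAAG in capitals.
Cnot6l: tgcgcgctcgcCTTCCGGggcccggcctc
The Pabpc4 window held neither motif, nor GGAAG, which both contain and which 71.4% of promoters hold. This window, chr4:123282661-123282960, lies inside the GENCODE gene, whose first base is 123262351, so the sequence at that first base was not searched. This describes letters in these windows and no binding.

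The wider set of 119 other poly(A) and mRNA decay genes, of which 102 were tested, gave the members a background. Between Alyref KO and non-KO morulae none of the 102 passed the threshold with edgeR. The count was 16 at an unadjusted p under 0.05, where 12.1% of all genes were. It was 3 with DESeq2 and 5 with limma voom, where 2.73% and 4.57% of all genes were called, and the median log2 fold change was -0.04, as it was over all genes. The values were largest for Fam46a, a cytoplasmic poly(A) polymerase family gene, at 16.1 and 22.4 CPM in KO against 0.163, 1.60 and 2.40 CPM in non-KO morulae (3.80 on the log2 scale, adjusted p 0.248). Noct, a gene of the CCR4 nuclease family, was at 10.96 and 23.5 against 46.7, 65.9 and 60.5 CPM (-1.73, adjusted p 0.0854). Rc3h1, which recruits CCR4-NOT to target mRNAs, was at 24.6 and 37.7 against 13.1, 9.87 and 12.04 CPM (1.42, adjusted p 0.108).

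In morulae labelled Gabpb1 KO, 3 of the 102 genes passed the threshold, against 1.65% of all genes. Cpeb3, a regulator of cytoplasmic polyadenylation, was higher, at 14.1, 9.07 and 9.50 against 2.28 and 1.22 CPM (2.63 on the log2 scale, SE 0.42, adjusted p 0.00744). Cstf2, a subunit of the cleavage stimulation factor, was lower, at 21.3, 10.6 and 28.7 against 65.5 and 64.6 CPM (-1.68, SE 0.33, adjusted p 0.0230). Ythdf3, a reader of methylated adenosine in mRNA, was lower, at 41.3, 33.6 and 40.0 against 77.4 and 87.2 CPM (-1.10, SE 0.26, adjusted p 0.0468). Cstf2 in the non-KO controls was within the range of the Alyref cross morulae, at 50.4 to 91.4 CPM, so the morulae labelled Gabpb1 KO were the low group for this gene. For Cpeb3 the controls were the low group, as for Pabpc4, below the 4.47 to 9.28 CPM of the Alyref cross morulae. These calls came to 0 with ERCC library sizes and with only the compared groups in the fit, where 26 and 0 of all 18410 genes were called. They numbered 6, 2 and 3 without labelled KO replicate 1, 2 or 3, beside 966, 118 and 137 of all genes. Comparing non-KO morulae between crosses, 2 of the 102 were past the threshold beside 1.86% of all genes: Pnrc1, at 10.8 and 10.3 CPM in the Gabpb1 cross, was 3.73 higher on the log2 scale (4.45 without Alyref cross morula 3), and Cpeb3 was lower, at -2.09. This count was 0, 0 and 9 without Alyref cross morula 1, 2 or 3, beside 0, 0 and 2435 of all genes. Leaving out 1 of the 2 Gabpb1 cross non-KO morulae leaves a single embryo in that group. No count is therefore given for it in either comparison.

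Between the stages of the Alyref cross, 11 of the 102 genes passed the threshold, 2 higher and 9 lower in blastocysts, or 10.8% where 13% of all genes did (5.62% higher and 7.43% lower). In the list of poly(A)-binding proteins and their partners, 3 of 13 tested genes were past it, namely Pabpc4, Larp4 and Ybx2. In the list of CCR4-NOT and BTG/TOB genes, none of 15 were with edgeR. At an unadjusted p under 0.05, 1 of the 15 was, where 5723 of all 18410 genes were. Larp4, which binds poly(A) and Pabpc1, was at 83.9, 66.5 and 83.5 CPM in the blastocysts and 610, 1673 and 95.5 CPM in the morulae (-3.35 on the log2 scale, SE 0.71, adjusted p 0.0117). Eif4e, the cap-binding initiation factor, was at 247, 224 and 246 against 571, 1719 and 305 CPM (-1.86, SE 0.46, adjusted p 0.0205). Ago2, the small RNA-guided effector, was at 75.9, 105 and 104 against 208, 285 and 244 CPM (-1.37, SE 0.33, adjusted p 0.0176). Papd5, a poly(A) polymerase, was at 22.5, 27.4 and 26.8 against 51.1, 86.2 and 50.8 CPM (-1.29, SE 0.34, adjusted p 0.0260). Nanos1, a translational repressor, and Clp1, a subunit of the cleavage machinery, were also lower, at -4.03 and -1.95 on the log2 scale, as were Fam46c, Zcchc11 and Cstf1. Ppp1cb, a protein phosphatase subunit (0.89), and Ybx2, an mRNA-binding protein of germ cells (1.67), were higher. Of the 9 lower genes, Larp4, Eif4e, Nanos1, Clp1, Papd5 and Cstf1 shared the order of the morulae with Pabpc4, highest in morula 2 and lowest in morula 3. For Papd5, morulae 1 and 3 were close, at 51.1 and 50.8 CPM. The share of all genes with this order was not counted, so nothing is read from it. Without morula 2 the log2 fold change was -0.59 for Clp1, -0.83 for Eif4e and -2.13 for Larp4, and none of these passed. Nanos1 was at -5.34 without blastocyst 1, also without passing. The count of 11 rested on single embryos: it was 7, 0 and 23 without morula 1, 2 or 3, and 1, 0 and 4 without blastocyst 1, 2 or 3. Over all 18410 genes the calls then numbered 864, 346 and 4560, and 423, 442 and 1104. The sum of trophectoderm markers was again highest in morula 3 among these morulae. It and the epiblast, cumulus and oocyte sums were separated between these stages, and their part in these results was not tested.

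**Figure D5:**
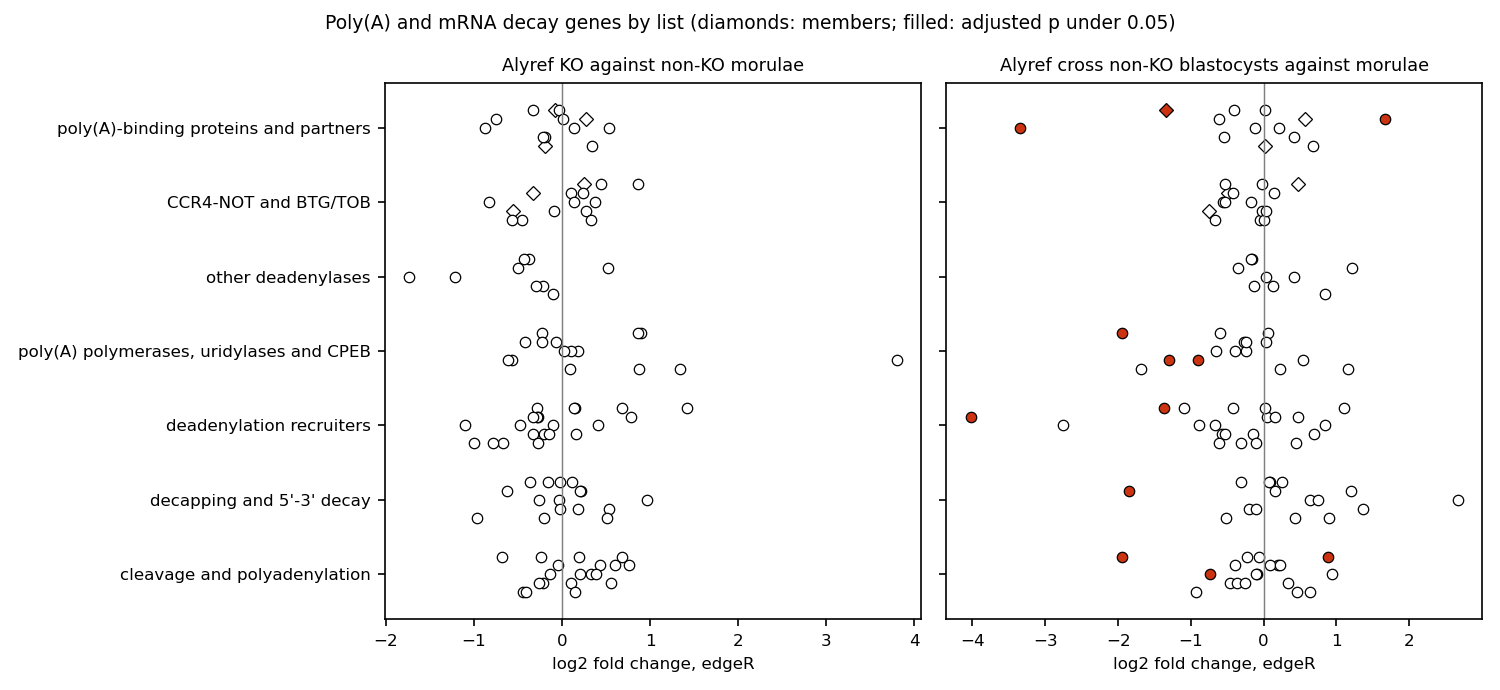
Log2 fold changes from edgeR (horizontal axes) of tested genes in 7 lists on poly(A) and mRNA decay (vertical axis), for Alyref KO against non-KO morulae (left) and Alyref cross blastocysts against morulae (right). Diamonds are the members and filled symbols have an adjusted p under 0.05: none on the left, and Pabpc4 with 11 other genes on the right.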

How the data were processed

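PolyA RNA of 19 single embryos was amplified and sequenced, per the labels. The deposited table is named for FPKM, but the deposited values are whole-number counts per gene with the merged exon length. Per the submitters' processing notes, Trimmomatic, Trim Galore, cutadapt, STAR, featureCounts and build mm10 were used. Versions, strand setting and the treatment of reads with several matches are not given in the sources used here. The design had allowed for FPKM or counts, and the count test was used.

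Levels are CPM with TMM-scaled library sizes over the 53379 gene rows, without the 92 ERCC rows. FPKM was computed from counts and length. Genes with FPKM of 1 or more in at least 2 embryos, 18410 of 39262 with any count, were tested with edgeR 4.0.16 (R 4.3.3). The quasi-likelihood test used 1 mean per group for 7 groups, 8 contrasts and Benjamini-Hochberg adjustment over all genes tested. A gene is past the threshold at an adjusted p under 0.05. Every adjusted p is from this test unless another tool is named. SE was derived from the fold change and F, and 95% intervals use the total degrees of freedom of the fit. P-values and intervals measure the spread between embryos. PCR copies carry no molecular identifiers, and the 3-count floors cover counting error only.

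Alternatives were DESeq2 1.42.0 size factors, ERCC library sizes, no filter, FPKM of 5 or more, DESeq2, limma 3.58.1 voom with sample quality weights, the replicate number as a block, only the groups compared, and each embryo left out. A sum of Pabpc4 with genes sharing its words was added after seeing the data. Members, the 7 poly(A) and decay lists and the 6 marker lists were chosen with earlier results of these data known. Named genes are the members, the most correlated tested genes (5 for Pabpc4, 3 for the others), and for each comparison up to 8 called list genes by adjusted p or, where under 5 were called, up to 5 with the largest change at an unadjusted p under 0.05, of which the text gives some. The edgeR test was tested on simulated data over 18410 genes, with changes put into the Alyref KO group for 50 genes at each size. It recovered 2%, 44%, 74% and 64% of genes changed by 1, 2, 3 and 4 on the log2 scale, with 2 wrong calls.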

Additional observations from a re-analysis of the deposited data

Results flagged for a closer look

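Cnot1, the scaffold of the CCR4-NOT complex, lay on opposite sides of the controls in the KO comparisons of the 2 crosses. Its log2 fold change was -0.55 in Alyref KO against non-KO morulae, with both KO embryos below all 3 controls, and it did not pass the test (edgeR, adjusted p 0.462). It was 1.17 in the morulae labelled Gabpb1 KO, with all 3 embryos above both controls. The latter value comes from the comparison in which Pabpc4 was chosen and is a description. Separations in these directions were shared by 12.3% and 15.8% of all genes. The controls differed between the crosses, with mean Cnot1 levels of 161 CPM in the Alyref and 75.2 CPM in the Gabpb1 cross. The mean in the morulae labelled Gabpb1 KO was 169 CPM. The difference between the 2 fold changes was not tested.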

How the results depend on the processing

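Over members, the count past the threshold stayed at 0 in Alyref KO against non-KO morulae, in the Gabpb1 cross stage comparison and in both comparisons with WT blastocysts under every alternative that was run. Elsewhere it moved. Member counts in the Gabpb1 KO comparison, the non-KO morula comparison and the difference of stage effects are left out, since these use embryos of the choice. The Gabpb1 cross stage comparison uses some of them as well, so its count is a description. Between the Alyref stages the member count was 1 as reported. It was 0 with ERCC library sizes and with only the groups compared, where 352 and 24 of all genes were called. It was 2 with DESeq2 and 4 with limma voom, where 3762 and 7262 of all 18410 genes were called. With single embryos left out it ranged there from 0 to 2, beside 346 to 4560 of all genes. Among the other poly(A) and decay genes, the Alyref KO count was 3 with DESeq2 and 5 with limma voom. The Gabpb1 KO count was 0 with ERCC, 12 with DESeq2, 6 with limma voom, 0 with only the groups compared and 0 to 6 with embryos left out. The Alyref stage count was 3, 20, 35, 0 and 0 to 23 under the same settings. The non-KO morula count was 0, 10, 7, 0 and 0 to 9, and 4 with no filter and 4 with the FPKM minimum of 5. The cause of these moves was not tested, except that fewer embryos or groups leave fewer degrees of freedom.

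ERCC library sizes turned the direction of 10 log2 fold changes given in the text. In Alyref KO morulae Pabpc4 became 0.079 and Cnot6l -0.063. Between Alyref stages Pabpc1 became -0.25 and Cnot6l -0.084, and in the Gabpb1 KO comparison Pabpn1 became -0.20 and Cnot7 -0.16. Between Gabpb1 stages Pabpc4 became -0.54 and Cnot1 -0.64, and Pabpc1 became 0.050 between non-KO morulae. Pabpc4 in Alyref cross against WT blastocysts became 0.14, and also turned to 0.018 with no filter, 0.021 with limma voom, 0.017 with the replicate block and 0.033 as the sum over shared words. ERCC library sizes moved the median over all genes to -0.40 in the Gabpb1 KO, -0.34 in the Alyref stage, -0.86 in the Gabpb1 stage and 0.39 in the non-KO morula comparison. The sum over shared words turned Pabpc4 to 0.033 in Alyref KO morulae. With embryos left out, the ranges that crossed 0 were -0.40 to 0.20 for Pabpc4 and -0.14 to 0.76 for Cnot6l in Alyref KO morulae, -0.093 to 0.12 for Pabpc1 between Alyref stages, -0.074 to 0.25 for Pabpn1 in the Gabpb1 KO comparison, -0.024 to 0.65 for Cnot1 between Gabpb1 stages, and -0.15 to 0.091 for Pabpc4 in Alyref cross against WT blastocysts. By CPM without length, Cnot1 ranked 3 and Pabpn1 5 among members.

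Replicate numbers were shared by groups, but correlations of same-numbered embryos ran from -0.16 to 0.17, so the numbers were not taken as pairs. With the replicate number as a block, Pabpc4 between Alyref stages was -1.26 (adjusted p 0.0202), and no count of members past the threshold moved. Among the named genes only Ybx2 lost its call with this block, at 1.58 between Alyref stages (adjusted p 0.0644). Depth limits Btg4 and Pabpc1l, at 25 and 6 counts at most.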
